A study of Homo sapiens with 12 samples.

Results

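CXCL9, CXCL10, CXCL11 and CXCR3 are a chemokine receptor and the ligands it shares, and their levels were read on 12 Affymetrix whole-transcript arrays of Hodgkin lymphoma cells with and without a transgene for EBF1. EBF1 is a transcription factor of early B-cell development. The 4 genes were taken as the rows whose platform annotation gives one of these symbols, and they were selected on measured values of these arrays in all 4 groups. Each gene had 1 row, so the set holds 4 of the 32321 rows of the deposited table and 4 of the 20546 rows that carry a gene symbol. L-428 and L-1236 are established lines grown from Hodgkin lymphoma. Every group was transduced, cultured for 8 days and sorted for the fluorescent protein tGFP. The groups were L-428 with the tGFP-IRES-EBF1 vector (L-428 tGFP/EBF1), L-428 with the tGFP vector (L-428 tGFP), L-1236 with the tGFP-IRES-EBF1 vector (L-1236 tGFP/EBF1) and L-1236 with the tGFP vector (L-1236 tGFP). Each had 3 arrays, which the study describes as independent samples. Both lines are single cultured lines with a vector-driven EBF1, and the cells were grown without the T cells and macrophages that surround Hodgkin cells in tissue.

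CXCR3 is a G protein-coupled receptor best known on activated T cells and NK cells, which follow its ligands into inflamed tissue. CXCL9, CXCL10 and CXCL11 are small secreted chemokines whose genes lie side by side and are switched on by interferons. Interferon-gamma acts through the kinases JAK1 and JAK2 and through the factor IRF1, and CXCL10 also answers to type I interferons and to NF-kappaB. Hodgkin cells are known for making chemokines that draw immune cells around them.

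By RefSeq positions (GRCh38.p14) the 3 ligand genes lie on the minus strand of chromosome 4, CXCL9 at chr4:76001275-76007509, CXCL10 at chr4:76021118-76023497 and CXCL11 at chr4:76033682-76036070. The start sites of CXCL9 and CXCL10 are 15988 bases apart, and those of CXCL10 and CXCL11 are 12573 bases apart. CXCR3 lies on the minus strand of the X chromosome at chrX:71615919-71618511. The 250 bases before each start site are shown because the 4 genes moved differently from one another, and these are the stretches in which interferon and NF-kappaB motifs were searched. They are RefSeq sequences of the same assembly, written 5′ to 3′ on the gene's strand at chr4:76007510-76007759, chr4:76023498-76023747, chr4:76036071-76036320 and chrX:71618512-71618761. Capitals mark exact matches, on either strand, to the GAS motif TTCNNNGAA (the interferon-gamma-activated site), to the core GAAANNGAA of the interferon-stimulated response element (ISRE), to the kappaB consensus or to the EBF core CCCNNGGG.
CXCL9: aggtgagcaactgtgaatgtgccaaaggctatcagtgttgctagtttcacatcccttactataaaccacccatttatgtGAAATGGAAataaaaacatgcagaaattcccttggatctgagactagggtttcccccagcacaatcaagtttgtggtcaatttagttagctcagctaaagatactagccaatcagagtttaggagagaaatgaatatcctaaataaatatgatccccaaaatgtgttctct
CXCL10: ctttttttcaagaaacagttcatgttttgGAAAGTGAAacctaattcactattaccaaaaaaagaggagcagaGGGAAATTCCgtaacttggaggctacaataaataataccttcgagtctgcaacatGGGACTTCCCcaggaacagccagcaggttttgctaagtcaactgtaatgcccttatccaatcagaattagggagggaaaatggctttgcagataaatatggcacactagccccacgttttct
CXCL11: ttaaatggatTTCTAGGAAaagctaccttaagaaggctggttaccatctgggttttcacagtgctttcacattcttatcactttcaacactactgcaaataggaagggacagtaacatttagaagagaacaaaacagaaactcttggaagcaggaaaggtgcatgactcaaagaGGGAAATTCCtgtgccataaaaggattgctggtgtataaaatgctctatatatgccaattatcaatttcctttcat
CXCR3: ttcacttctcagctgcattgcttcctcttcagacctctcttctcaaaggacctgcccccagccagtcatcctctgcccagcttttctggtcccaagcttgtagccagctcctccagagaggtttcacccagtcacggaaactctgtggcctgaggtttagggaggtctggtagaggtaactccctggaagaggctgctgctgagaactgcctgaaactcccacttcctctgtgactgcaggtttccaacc

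The ligand promoters held different motifs. CXCL9 had 1 ISRE core, at positions -171 to -163 counted from the start site. CXCL10 had 1 ISRE core at -221 to -213 and 2 kappaB matches at -177 to -168 and -122 to -113. CXCL11 had 1 GAS match at -240 to -232 and 1 kappaB match at -76 to -67, and no ISRE core. CXCR3 had no match to any of the 4 motifs. The EBF core CCCNNGGG was found in none of the 4 windows. Of 35116 RefSeq promoter windows of the same length, 6.57% held the GAS motif, 6.88% the ISRE core, 5.21% the kappaB consensus and 17.1% the EBF core. A shorter EBF core, CCCNNGG, tried after the sequences were seen, matched CXCL9 at -143 to -137 and CXCL10 at -115 to -109, where it overlaps the second kappaB match by letters, and 53.4% of all windows hold it. A match describes the letters only.

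The arrays were alike in scale, with medians between 7.19 and 7.31 and interquartile ranges between 2.17 and 2.49 on the log2 scale. Pearson correlations over all rows lay between 0.992 and 0.997 within groups. Replicate 3 of L-428 tGFP and replicate 1 of L-1236 tGFP/EBF1 had a narrower range than the other arrays of their groups. Results are given with and without these arrays where they move. The EBF1 row, the check of the labels, averaged 12.96 in L-428 tGFP/EBF1 and 8.45 in L-428 tGFP, a 22.8-fold difference (limma, adjusted p = 6.87e-18). It averaged 13.15 in L-1236 tGFP/EBF1 and 7.17 in L-1236 tGFP, a 62.8-fold difference (limma, adjusted p = 4.47e-20). That row also lists PDGFRB.

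With EBF1, CXCL9 stood higher in L-428 and near its control level in L-1236, CXCL10 and CXCL11 stood lower in L-1236 and near their control levels in L-428, and CXCR3 stood lower in L-428. These differences are described with no test, since the genes were chosen with these values known. Standard errors (SE) come from the fit over all 12 arrays. Of the 4 genes, 1 (CXCL9) passed the study's limits of a 5% false discovery rate and a 2-fold change in L-428, where 0.0973% of all rows with a symbol did. In L-1236, 0 of the 4 passed them, against 0.146% of all rows. Nothing is read from those counts. RNA was measured per culture, so more RNA per cell and more cells that carry it cannot be told apart.

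CXCL9, the ligand most tied to interferon-gamma, read 8.81, 8.66 and 8.71 in L-428 tGFP/EBF1, against 7.16, 7.05 and 7.02 in L-428 tGFP. Every EBF1 array lay above every control array, and the groups did not overlap. The means were 8.72 ± 0.078 and 7.08 ± 0.077 (SD, n = 3 each), a log2 difference of 1.65 (SE 0.063), or 3.13-fold. Without replicate 3 of L-428 tGFP the difference was 1.62. In L-1236 the gene read 6.25, 6.11 and 6.18 with EBF1, against 6.30, 6.27 and 6.23 with tGFP alone. These groups overlapped, and the difference was -0.082 (SE 0.063), or -0.12 without replicate 1 of L-1236 tGFP/EBF1. In all 6 L-1236 arrays CXCL9 was below the array median. It was also below the median in every L-428 tGFP array, where 42.9% to 49.2% of rows lay below CXCL9. In the L-428 tGFP/EBF1 arrays 74.1% to 75.7% of rows did.

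CXCL10, the ligand that answers to both interferon classes and to NF-kappaB, read 10.90, 10.55 and 10.71 in L-428 tGFP/EBF1, against 10.69, 10.76 and 10.48 in L-428 tGFP. The L-428 groups overlapped, with a difference of 0.075 (SE 0.086), which was -0.0078 without replicate 3 of L-428 tGFP. In L-1236 it read 10.13, 10.18 and 10.21 with EBF1, against 10.83, 10.64 and 10.78 with tGFP alone. All 3 EBF1 arrays of L-1236 were below all 3 of its controls. The means were 10.18 ± 0.037 and 10.75 ± 0.10 (SD, n = 3 each), a log2 difference of -0.58 (SE 0.086), or 0.671 times the control signal. Without replicate 1 of L-1236 tGFP/EBF1 the difference was -0.56.

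CXCL11, the ligand with the highest affinity for CXCR3, varied least. It read 6.77, 6.71 and 6.88 in L-428 tGFP/EBF1, against 6.87, 6.83 and 6.64 in L-428 tGFP. These groups overlapped, and the difference was 0.0083 (SE 0.072), or -0.062 without replicate 3 of L-428 tGFP. In L-1236 it read 6.31, 6.46 and 6.51 with EBF1, against 6.77, 6.74 and 6.71 with tGFP alone. The L-1236 groups did not overlap, with a difference of -0.31 (SE 0.072), or -0.25 without replicate 1 of L-1236 tGFP/EBF1. CXCL11 was below the array median on every array.

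CXCR3, the receptor, read 8.58, 8.63 and 8.55 in L-428 tGFP/EBF1, against 9.06, 9.13 and 8.77 in L-428 tGFP. Every EBF1 array was below every control array, and the control replicate nearest to them was replicate 3, one of the arrays with a narrow range. The means were 8.58 ± 0.040 and 8.99 ± 0.19 (SD, n = 3 each), a difference of -0.40 (SE 0.080), and -0.51 without that array. In L-1236 the receptor read 7.94, 7.75 and 7.79 with EBF1, against 7.66, 7.67 and 7.75 with tGFP alone. These groups overlapped, with a difference of 0.13 (SE 0.080), or 0.074 without replicate 1 of L-1236 tGFP/EBF1.

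**Figure D1:**
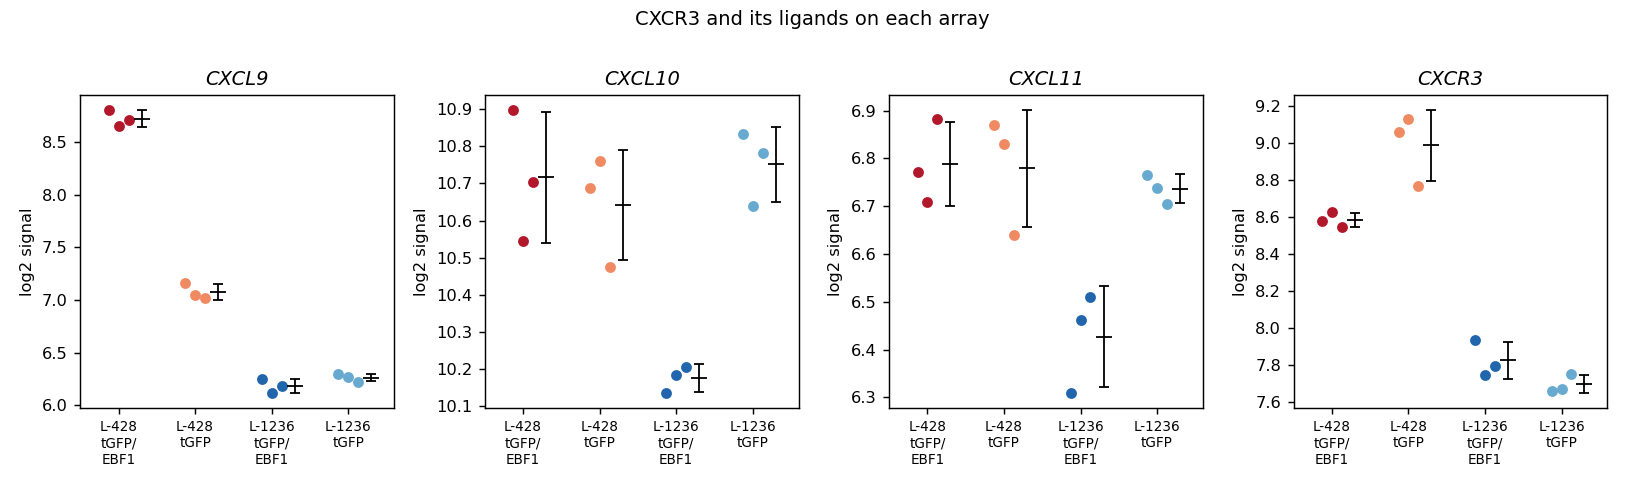
Log2 signal of CXCL9, CXCL10, CXCL11 and CXCR3 on each of the 12 arrays, with 1 dot per array in replicate order and bars for the mean and SD of 3 arrays. CXCL9 is at 8.66 to 8.81 in L-428 tGFP/EBF1 and at 7.16 or lower elsewhere, whereas CXCL10 and CXCL11 are lowest in L-1236 tGFP/EBF1. The scales differ between panels.

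Across the 4 groups, the means of CXCL9 spanned 2.54 on the log2 scale, those of CXCR3 1.29, those of CXCL10 0.577 and those of CXCL11 0.361. CXCL9 was highest in L-428 tGFP/EBF1, followed by L-428 tGFP, and the arrays of both L-1236 groups overlapped below them. CXCR3 was highest in L-428 tGFP, followed by L-428 tGFP/EBF1, with the L-1236 groups overlapping below. For CXCL10 and CXCL11 the L-428 tGFP/EBF1, L-428 tGFP and L-1236 tGFP arrays overlapped, and the L-1236 tGFP/EBF1 arrays lay below all others. Between the control groups, L-428 tGFP stood above L-1236 tGFP by 0.81 for CXCL9 (1.76-fold) and by 1.29 for CXCR3 (2.44-fold), with no overlap of arrays. They were 0.84 and 1.40 without replicate 3 of L-428 tGFP. The same comparison gave -0.11 for CXCL10 and 0.043 for CXCL11, with overlapping arrays. On leaving out replicate 3 of L-428 tGFP it gave -0.027 for CXCL10 and 0.11 for CXCL11, and without replicate 1 of L-428 tGFP it gave -0.0019 for CXCL11.

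The measured genes beside the chemokine cluster differed by -0.21 to 0.24 with EBF1 in L-428. All 9 measured neighbours of the 4 genes had an adjusted p of 0.078 or more there in limma. NAAA, an acid amidase of the lysosome and the neighbour nearest to passing, differed by 0.24 in L-428 (limma, adjusted p = 0.078) and by -0.10 in L-1236 (limma, adjusted p = 0.513). ART3, on the plus strand at chr4:76011190-76112786, spans CXCL10 and CXCL11 and differed by 0.028 in L-428 and by -0.052 in L-1236. On the X chromosome the neighbours of CXCR3 that were called were TAF1, a subunit of the general transcription factor TFIID, and OGT, the enzyme that adds GlcNAc to intracellular proteins. In L-1236 TAF1 fell by 0.24 (limma, adjusted p = 0.0312) and OGT fell by 0.26 (limma, adjusted p = 0.0346) on the log2 scale. Alternatives were not run for the neighbours.

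**Figure D2:**
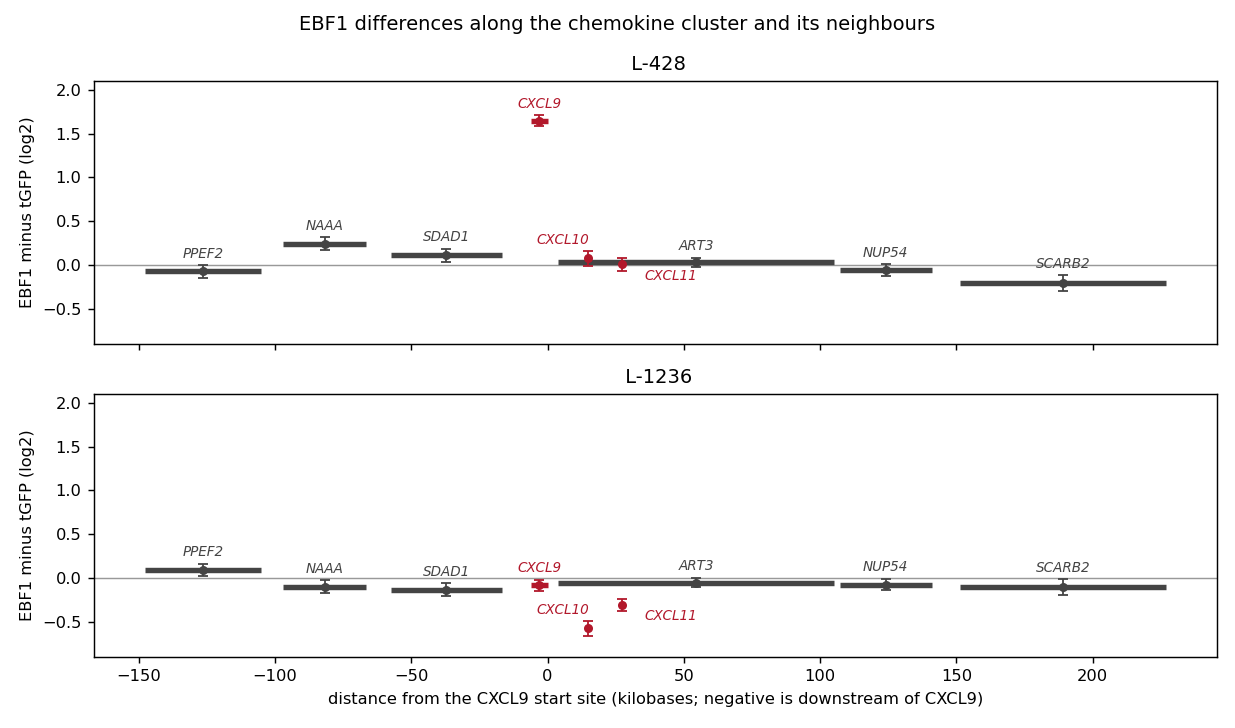
Log2 difference between tGFP/EBF1 and tGFP arrays, with its SE, for CXCL9, CXCL10, CXCL11 and their neighbours on chromosome 4, against distance from the CXCL9 start site, with L-428 above and L-1236 below. Horizontal bars give each gene's extent. CXCL9 stands at 1.65 in L-428 while its neighbours lie between -0.21 and 0.24, and CXCL10 and CXCL11 are the lowest in L-1236, at -0.58 and -0.31.

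Upstream of the chemokines, the interferon-gamma list held the cytokine, its receptor chains, kinases, factors and inhibitors. These genes were tested in the fit over all rows, and a gene is said to rise or fall where its adjusted p was 0.05 or less. All gene lists here were chosen with earlier results of these data known. Their counts beside the shares of all rows are therefore a description and no test of a list. In L-428, 3 of 13 measured genes rose and 2 fell, where 2.62% of all rows rose and 1.72% fell. The list's median difference was 0.0073, beside 0.0037 over all rows. IFNG, which encodes interferon-gamma, read 7.17, 7.22 and 7.06 in L-428 tGFP/EBF1, against 6.75, 6.70 and 6.62 in L-428 tGFP, and rose by 0.46 (SE 0.060; limma, adjusted p = 9.40e-05). All 6 of these IFNG values were below the median of their arrays. IRF1, the factor that carries the interferon-gamma signal to many promoters, read 10.59, 10.66 and 10.72 with EBF1, against 10.25, 10.10 and 9.88 without, and rose by 0.58 (SE 0.076; limma, adjusted p = 9.40e-05). IRF8, a related factor of B cells and myeloid cells, rose by 0.46 (limma, adjusted p = 0.00114). These 3 genes had no overlap between L-428 groups and kept their calls in every alternative run. NMI, a STAT-binding protein, fell by 0.36 (adjusted p = 0.0166), and JAK2 fell by 0.24 (limma, adjusted p = 0.0488). The NMI call was lost without replicate 1 of L-428 tGFP or replicate 2 of L-428 tGFP/EBF1, with an adjusted p of up to 0.117. The JAK2 call was lost in 15 of 22 alternatives, among them the removal of any of the 6 L-428 arrays, with an adjusted p of up to 0.22. After median centring, 3 of the list rose and 0 fell in L-428.

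In L-1236, 2 of the 13 rose and 1 fell, beside 3.69% of all rows that rose and 5.95% that fell, with a median of 0.056 beside 0.0080. IFNG averaged 6.13 with EBF1 and 6.16 with tGFP alone (limma, adjusted p = 0.834). IRF1 and IRF8 stood higher with EBF1 by 0.24 and 0.22, with no overlap, but were not called (limma, adjusted p = 0.0571 and 0.085). For neither gene did the difference of effects between the lines pass (limma, adjusted p = 0.0749 for IRF1 and 0.263 for IRF8). NMI read 7.74, 7.94 and 7.87 in L-1236 tGFP/EBF1, against 8.77, 8.88 and 8.98 in L-1236 tGFP, and fell by 1.02 (SE 0.083; limma, adjusted p = 1.36e-07). SOCS1 and SOCS3, feedback inhibitors of JAK kinases, rose by 0.33 and 0.20 (limma, adjusted p = 0.0192 and 0.0226). Both SOCS calls were lost when replicate 1 or 3 of L-1236 tGFP or replicate 1 or 3 of L-1236 tGFP/EBF1 was left out, and the SOCS1 call also without replicate 2 of L-1236 tGFP, with an adjusted p of up to 0.119. Without replicate 3 of L-428 tGFP, and likewise after quantile normalization, 4 of the 13 rose and 2 fell, and after median centring 1 rose and 1 fell. Of 13 genes of type I interferon signalling, 0 rose and 1 fell in each line, and 3 fell in each line without replicate 3 of L-428 tGFP. After median centring 0 fell in L-428, and after quantile normalization 2 fell in L-1236. STING1, the adaptor of DNA sensing, fell by 0.31 in L-428 (limma, adjusted p = 0.0176). That call was lost in 7 of 22 alternatives, including the removal of replicate 1 or 2 of either L-428 group, with an adjusted p of up to 0.112. IFIH1, a sensor of double-stranded RNA, fell by 0.35 in L-1236 (limma, adjusted p = 0.00854). That fall passed in every alternative run, though narrowly in 1 of them, with a limma adjusted p of up to 0.04999. STAT2 was not analysed here.

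Of 31 other interferon-gamma-induced genes measured, 7 rose in L-428, 0 fell and 24 did not pass, with a median of 0.11 beside 0.0037 over all rows. Over all rows, 2.62% rose and 1.72% fell there. CD274, which encodes the checkpoint ligand PD-L1, read 9.22, 9.22 and 9.04 in L-428 tGFP/EBF1, against 8.31, 8.22 and 8.22 in L-428 tGFP. It rose by 0.91 (SE 0.067; limma, adjusted p = 6.49e-08), with no overlap. IFI30, a lysosomal thiol reductase of antigen processing, rose by 0.54 (limma, adjusted p = 0.000324). GBP4, a guanylate-binding protein, rose by 0.49 (limma, adjusted p = 0.000624), and PSMB9, a subunit of the immunoproteasome, by 0.32 (limma, adjusted p = 0.0043). These 4 calls held in every alternative run. GBP3 and GBP2 rose by 0.31 and 0.30 (limma, adjusted p = 0.0421 and 0.0162). The GBP2 call was lost without replicate 2 of L-428 tGFP or replicate 1 or 3 of L-428 tGFP/EBF1, with an adjusted p of up to 0.092, and the GBP3 call in 11 of 22 alternatives, with an adjusted p of up to 0.192. Each of those 3 removals left 4 genes of the list rising. After median centring, or without replicate 3 of L-428 tGFP, 5 rose.

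The same list split in L-1236, where 5 of 31 rose and 4 fell, beside 3.69% and 5.95% of all rows. Its median was 0.025 beside 0.0080. CD274 read 10.85, 11.01 and 10.87 with EBF1, against 10.30, 10.21 and 10.34 with tGFP alone, and rose by 0.63 (limma, adjusted p = 4.12e-06). GBP3 rose by 0.50 (limma, adjusted p = 0.000546) and IFI30 by 0.38 (limma, adjusted p = 0.00375). PSMB8, another immunoproteasome subunit, fell by 0.40 (limma, adjusted p = 0.00117). These calls held in every alternative run. GBP4 and APOL1 rose by 0.27 each (limma, adjusted p = 0.0309 and 0.0196), GBP5 fell by 0.28, BATF2 by 0.25 and CIITA, the switch of MHC class II genes, by 0.22. Each of those last 5 calls was lost on removing at least 3 of the single L-1236 arrays, with an adjusted p of up to 0.145. The counts moved with the scaling and with single arrays. After quantile normalization 10 rose and 8 fell, and after median centring 3 rose and 3 fell. Quantile normalization also raised the L-1236 calls over all rows, from 1981 to 3063 (1445 higher, 1618 lower). Without replicate 1 or 2 of L-1236 tGFP or replicate 3 of L-1236 tGFP/EBF1, 3 genes of the list rose. Without replicate 3 of L-1236 tGFP/EBF1, 1 fell, without any 1 of the L-1236 tGFP arrays, 2 fell, and without replicate 3 of L-428 tGFP, 7 rose and 7 fell.

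Type I interferon-stimulated genes moved in both directions. In L-428, 2 of 36 rose and 3 fell, beside 2.62% and 1.72% of all rows. The list's median was -0.0092 beside 0.0037. LGALS3BP, a secreted partner of galectin-3, read 8.29, 8.44 and 8.21 with EBF1, against 7.31, 7.34 and 7.27 with tGFP alone, and rose by 1.01 (SE 0.068; limma, adjusted p = 2.13e-08). SAMD9L, an antiviral factor that restrains growth, rose by 0.61 (limma, adjusted p = 0.000365). BST2, which tethers budding viruses to the cell, fell by 0.61 (limma, adjusted p = 2.70e-05). IFIT1, which binds viral RNA, fell by 0.33 (limma, adjusted p = 0.00619), a call lost without replicate 3 of L-428 tGFP/EBF1 (adjusted p = 0.0533). DDX60, a helicase, fell by 0.31 (limma, adjusted p = 0.0152). The DDX60 call was lost without replicate 1 of L-428 tGFP or replicate 1 or 2 of L-428 tGFP/EBF1, with an adjusted p of up to 0.0886. After quantile normalization 3 of the list rose and 3 fell, and after median centring 2 rose and 2 fell.

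In L-1236, 5 of 36 rose and 9 fell, beside 3.69% and 5.95% of all rows. The list's median was -0.056 beside 0.0080. IFIT2, an RNA-binding protein of the same family as IFIT1, read 7.01, 7.20 and 7.10 with EBF1, against 8.07, 8.09 and 7.98 with tGFP alone, and fell by 0.94 (SE 0.087; limma, adjusted p = 6.59e-07). IFIT3 fell by 0.60 (limma, adjusted p = 0.000238), BST2 by 0.57 (limma, adjusted p = 2.36e-05) and MX1, an antiviral GTPase, by 0.45 (limma, adjusted p = 0.000244). SAMD9L rose by 0.62 (limma, adjusted p = 0.000146) and SAMD9 by 0.43 (limma, adjusted p = 0.0036). These 6 calls held in every alternative run. PLSCR1, IFI6 and LGALS3BP rose by 0.31, 0.29 and 0.22, and TRIM22 and IFIT1 fell by 0.32 and 0.28, each with a call lost on leaving out at least 1 of the L-1236 arrays and an adjusted p of up to 0.184. Without replicate 2 of L-1236 tGFP or replicate 3 of L-1236 tGFP/EBF1, 2 of the list rose. Without replicate 1 or 3 of L-1236 tGFP or replicate 2 of L-1236 tGFP/EBF1, 3 rose, and without replicate 1 of L-1236 tGFP, 5 fell. After median centring 2 rose and 8 fell.

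**Figure D3:**
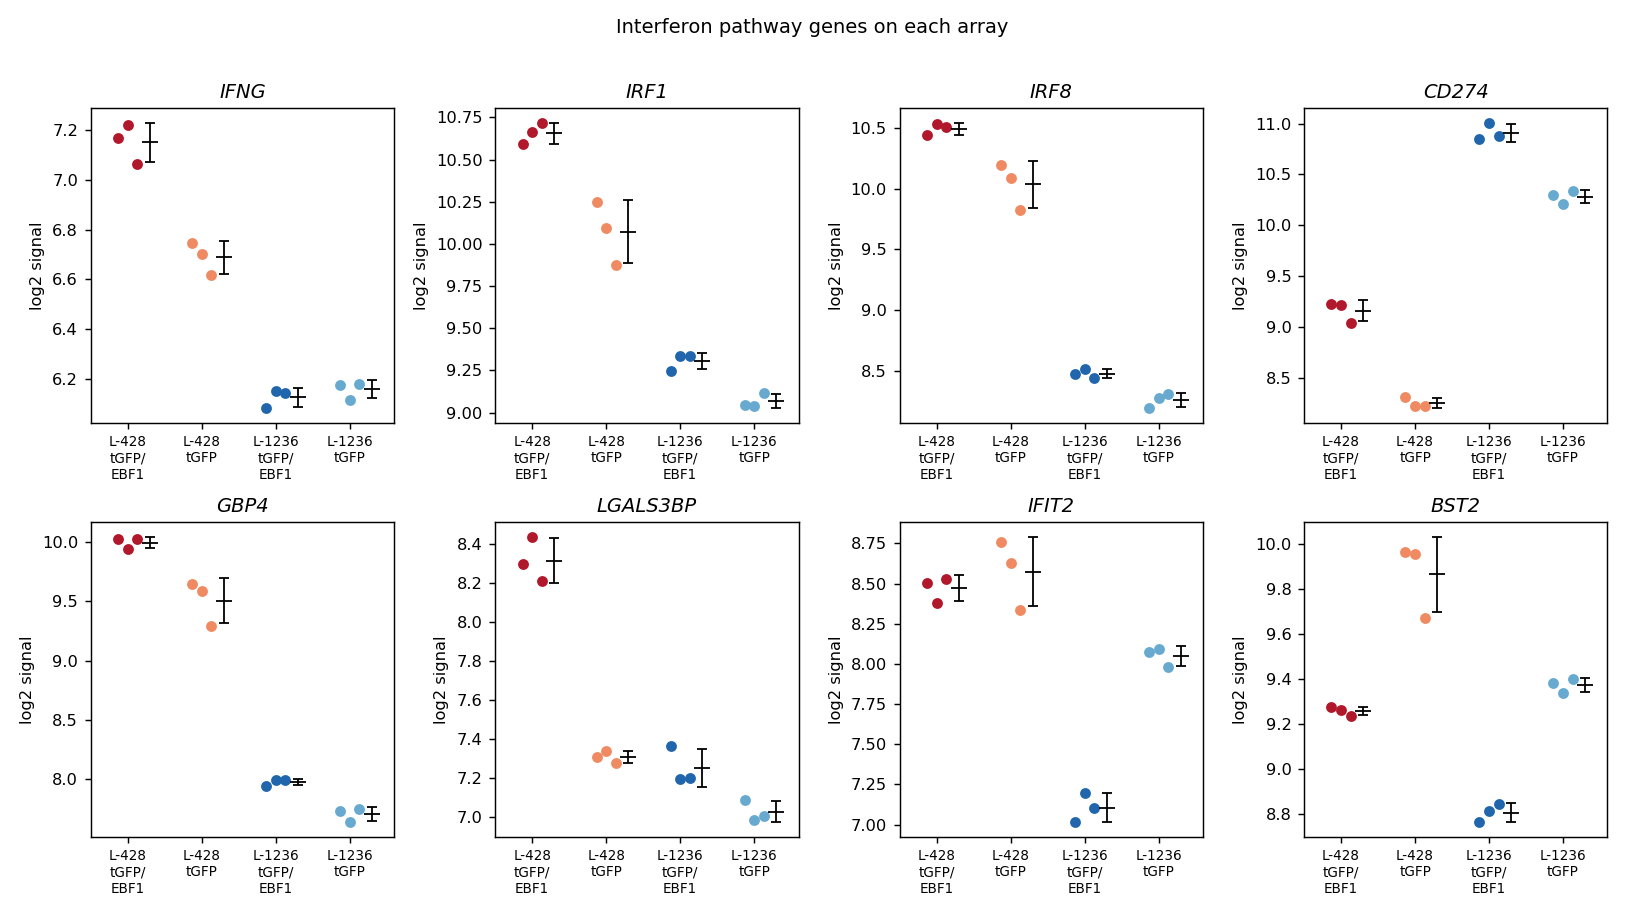
Log2 signal of 8 interferon pathway genes on each array, with 1 dot per array in replicate order and bars for the mean and SD of 3 arrays. IFNG is at 7.06 to 7.22 in L-428 tGFP/EBF1 and at 6.62 to 6.75 in L-428 tGFP, CD274 is higher with EBF1 in both lines, BST2 is lower with EBF1 in both, and IFIT2 is lowest in L-1236 tGFP/EBF1.

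**Figure D4:**
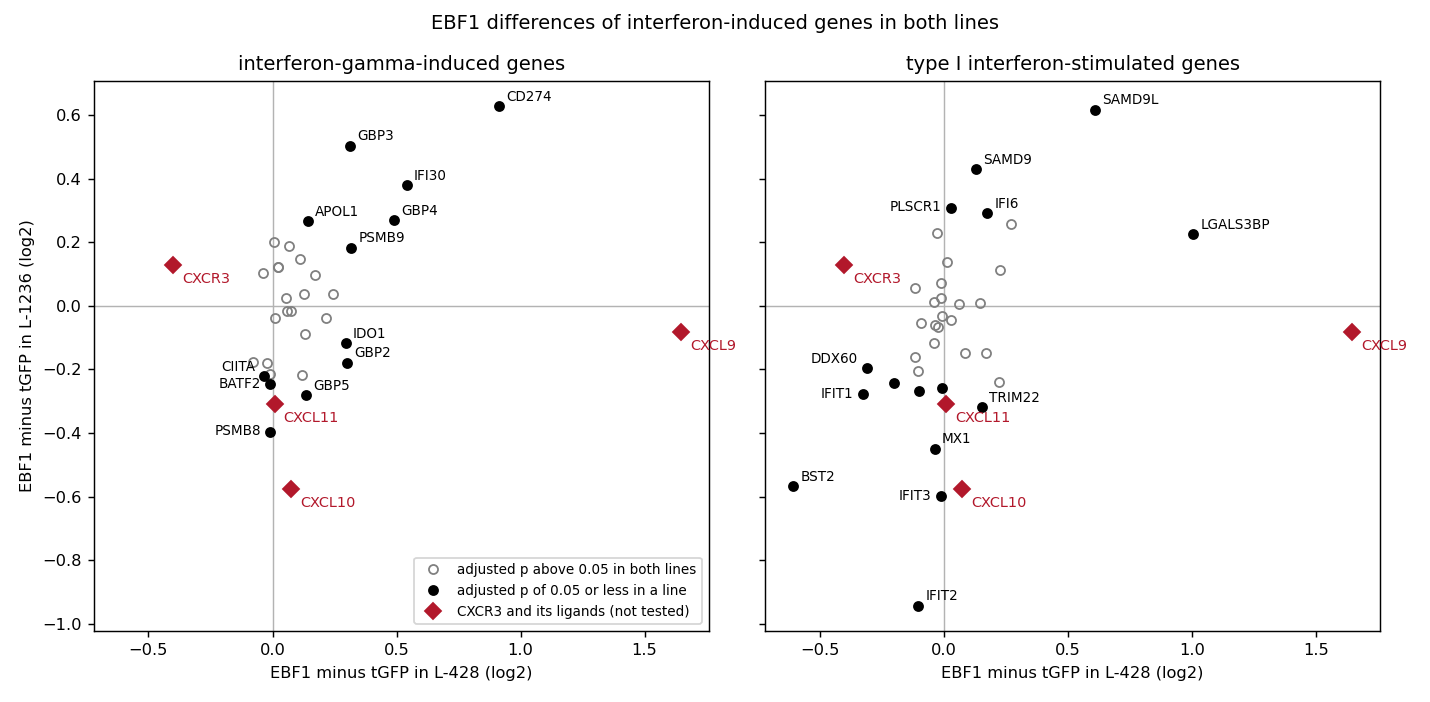
Log2 difference between tGFP/EBF1 and tGFP arrays in L-428 (horizontal) and L-1236 (vertical), with interferon-gamma-induced genes on the left and type I interferon-stimulated genes on the right. Red diamonds repeat CXCR3 and its ligands in both panels, and filled circles passed an adjusted p of 0.05 in a line. CXCL9 lies at 1.65 and -0.082, CXCL10 at 0.075 and -0.58, CD274 at 0.91 and 0.63, and IFIT2 at -0.10 and -0.94.

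The effects of EBF1 were also compared between the lines, as L-428 minus L-1236. Of all rows, 5.16% passed the adjusted p for that difference, counting both directions. With the replicate number as a block, 563 of all rows were called higher and 322 lower. Without both arrays of narrow range, 784 of all rows were higher and 1113 lower. The genes of the 6 pathway lists were then 17 higher and 12 lower. Nothing is read from the direction of the list counts. In the interferon-gamma-induced list, 4 of 31 genes had a higher effect in L-428 and 0 a lower one. Leaving out replicate 1 or 3 of L-428 tGFP/EBF1 or replicate 3 of L-1236 tGFP left 1 with a higher effect, and leaving out replicate 2 of L-428 tGFP/EBF1, replicate 1 or 2 of L-1236 tGFP or replicate 1 or 3 of L-1236 tGFP/EBF1 left 2. Without replicate 3 of L-428 tGFP, 1 had a lower effect. After quantile normalization 7 were higher and 1 lower, and after median centring 1 was higher and 0 lower. In the type I interferon-stimulated list, 5 of 36 had a higher effect in L-428 and 0 a lower one, and 5 were higher and 2 lower without replicate 3 of L-428 tGFP and 6 higher and 2 lower after quantile normalization. The list genes with the largest differences were RGS16, IFIT2, LGALS3BP, NMI, BCL3 and IFIT3.

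NF-kappaB, which also drives CXCL10, was represented by 11 subunits and inhibitors. In L-428, 0 of them passed the adjusted p in limma, where 2.62% of all rows rose and 1.72% fell. An unadjusted limma p under 0.05 was found for 5. The share of all rows under that limit was not computed, so nothing is read from that count. After quantile normalization 2 rose, and the L-428 calls over all rows went from 892 to 1614 (964 higher, 650 lower). NFKB1, a DNA-binding subunit, differed by 0.23 (limma, adjusted p = 0.117) in L-428. In L-1236, 1 rose and 3 fell, beside 3.69% and 5.95% of all rows. Without replicate 3 of L-428 tGFP, 3 rose and 4 fell. After quantile normalization 2 rose and 3 fell, and after median centring 0 rose and 2 fell. BCL3, an atypical inhibitor that enters the nucleus, read 9.58, 9.33 and 9.29 with EBF1, against 10.11, 10.05 and 9.94 with tGFP alone, and fell by 0.63 (limma, adjusted p = 2.85e-05). NFKBIZ, a related nuclear inhibitor, fell by 0.34 (limma, adjusted p = 0.00107), and both calls held in every alternative run. TNFAIP3, a feedback inhibitor, fell by 0.34 (adjusted p = 0.0164), a call lost on removing replicate 1 or 3 of either L-1236 group, with an adjusted p of up to 0.074. REL, a DNA-binding subunit, rose by 0.31 (limma, adjusted p = 0.0126), a call lost without replicate 2 of either L-1236 group, with an adjusted p of up to 0.0703.

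Around the receptor, the list held the other ligand receptors, the protease that trims the ligands, kinases and regulators of G protein signalling. In L-428, 2 of 19 measured genes rose and 2 fell, beside 2.62% and 1.72% of all rows. The list's median was 0.017 beside 0.0037. TBX21, the T-cell factor T-bet that drives CXCR3 in T cells, read 7.87, 7.92 and 7.93 with EBF1, against 7.52, 7.64 and 7.59 with tGFP alone, and rose by 0.32 (limma, adjusted p = 0.00224), while CXCR3 stood lower. RGS16, which speeds the shut-off of G proteins, read 8.98, 8.999 and 8.95 with EBF1, against 8.60, 8.75 and 8.47 with tGFP alone, and rose by 0.37 (limma, adjusted p = 0.00271). GRK3 and GRK2, kinases that silence occupied receptors, fell by 0.32 and 0.30 (limma, adjusted p = 0.00724 and 0.0445). The GRK3 call was lost without replicate 2 of L-428 tGFP/EBF1 and after median centring, with an adjusted p of up to 0.0533, and the GRK2 call in 13 of 22 alternatives, with an adjusted p of up to 0.198. After median centring, 2 of the list rose and 0 fell.

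In L-1236, 1 of the 19 rose and 4 fell, beside 3.69% and 5.95% of all rows. The list's median was 0.035 beside 0.0080. RGS16 read 10.34, 10.40 and 10.28 with EBF1, against 10.92, 10.88 and 10.82 with tGFP alone, and fell by 0.53 (limma, adjusted p = 2.91e-05). RGS1, another regulator of G proteins, fell by 0.36 (limma, adjusted p = 0.00962), a call lost after median centring alone (adjusted p = 0.0504). GRK3 fell by 0.26 and ACKR3, a scavenging receptor for CXCL11, by 0.24, and GRK5 rose by 0.23. The GRK3 call was lost without replicate 2 of L-1236 tGFP or replicate 3 of L-1236 tGFP/EBF1, with an adjusted p of up to 0.0921. The ACKR3 and GRK5 calls were lost without any of several arrays, with an adjusted p of up to 0.225 and 0.126. Without replicate 3 of L-1236 tGFP/EBF1, 2 of the list fell, and after median centring 0 rose and 1 fell. ARRB2 was not analysed here.

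The control groups already differed in genes of these pathways, as they did over all rows. Between L-428 tGFP and L-1236 tGFP, 26.1% of all rows were higher and 21.7% lower, so a call is common in this comparison. Of the interferon-gamma signalling list, 8 of 13 were higher in L-428 tGFP and 3 lower, or 8 and 1 after median centring. IRF8 was higher by 1.78 (limma, adjusted p = 3.70e-13), IRF1 by 1.01 (limma, adjusted p = 1.46e-09) and IFNGR1, the ligand-binding receptor chain, by 1.81 (limma, adjusted p = 3.21e-12). IFNGR2, the second chain, differed by -1.38 (limma, adjusted p = 2.44e-11). Of the interferon-gamma-induced list, 16 of 31 were higher and 11 lower, with GBP4 at 1.80 and CD274 at -2.03. Of type I interferon signalling, 5 of 13 were higher and 5 lower, with CGAS at 0.80 and STING1 at -1.52. Of the type I interferon-stimulated list, 18 of 36 were higher and 7 lower, or 19 and 12 after quantile normalization. HERC6 stood at 3.13, MX2 at 2.75 and IFI44 at -1.10. Of the NF-kappaB list, 7 of 11 were higher and 3 lower, with TNFAIP3 at 1.89 and NFKBIE at -1.05. Of the receptor's list, 4 of 19 were higher and 7 lower. DPP4, the protease that removes the first residues of the ligands and blunts their activity, averaged 7.68 in L-428 tGFP and 11.11 in L-1236 tGFP, a difference of -3.44 (limma, adjusted p = 3.33e-17). RGS16 differed by -2.26 (limma, adjusted p = 1.74e-15) and GRK3 by 2.04 (limma, adjusted p = 6.65e-15).

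Marker lists were read beside the receptor, which is best known on T and NK cells. Of 13 T and NK cell markers, 11 averaged below the array median in both L-428 groups and 10 in both L-1236 groups. Their mean level lay between 6.77 and 6.82 in L-428 tGFP/EBF1 and between 6.74 and 6.89 in L-428 tGFP, and between 6.999 and 7.12 in L-1236 tGFP/EBF1 and between 6.94 and 6.999 in L-1236 tGFP. In L-428, 0 of the 13 passed the adjusted p in limma, where 2.62% of all rows rose and 1.72% fell. An unadjusted limma p under 0.05 was found for 0 of them. In L-1236, 2 of the 13 rose and 0 fell, where 3.69% of all rows rose and 5.95% fell. The risers were CD4, by 0.48 (limma, adjusted p = 0.00165), and CD3D, by 0.32 (limma, adjusted p = 0.00271). CD3D averaged 6.50 with EBF1 and 6.18 without, below the array median in both. Of 12 macrophage markers, 10 averaged below the array median in every group. In L-428 0 of them were called. In L-1236 1 rose and 0 fell, beside the same 3.69% and 5.95% of all rows. That 1 was CSF1R, which rose by 0.36 (limma, adjusted p = 0.00107). Of 8 Hodgkin cell markers, all averaged above the array median in L-428 tGFP/EBF1 and both L-1236 groups, and 7 in L-428 tGFP. The part of other cells in the receptor's levels was not tested.

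The rows whose pattern over the 12 arrays was most like that of CXCL9 were PRKCH (Pearson r = 0.994), CHRNA1 (r = 0.991) and AFF2 (r = 0.991), of 1900 rows with 1 symbol and a group-mean span of 1 or more. PRKCH encodes a protein kinase C, CHRNA1 a muscle acetylcholine receptor subunit and AFF2 a nuclear protein. PRKCH averaged 8.35 in L-428 tGFP/EBF1, 7.30 in L-428 tGFP, 6.54 in L-1236 tGFP/EBF1 and 6.65 in L-1236 tGFP. After each line's mean was subtracted, AFF2, PRKCH and CHRNA1 were again the rows most like CXCL9, with r between 0.986 and 0.988. For CXCR3 they were GPR55, a lipid receptor (r = 0.994), TBC1D10A, a Rab GTPase activator (r = 0.993), and STMN2, a regulator of microtubules (r = 0.992). With the line means subtracted, AURKB, a kinase of cell division (r = 0.957), took the place of STMN2, beside GPR55 (r = 0.944) and TBC1D10A (r = 0.941). These correlations describe 12 arrays that share 2 lines and 4 groups.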

How the data were processed

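The deposited table holds 1 log2 value per row and array; its log base and the authors’ summarization and normalization were not given in the sources used here, and the base was taken as 2 because values reach 14.3. Rows were named from the platform annotation (19158 with 1 symbol, 1388 with several, 11775 with none). The 20546 rows with a symbol were fitted as deposited in limma 3.58.1 (R 4.3.3; lmFit, eBayes, 4 group means, no block, 8 residual and 9.98 prior degrees of freedom), with Benjamini-Hochberg adjustment within each contrast and tests on simulated data. The limit of 2-fold is the design text's. The members and 9 gene lists (162 genes, 156 measured, brightest row per gene) were chosen with earlier results of these data known. Members get no p-value. Of each pathway list, up to 6 genes per direction with the largest called change were named for each EBF1 comparison. Between the controls up to 3 per direction were chosen in the same way, and only some of these are printed. Up to 6 differences of effect were named, and a list without a call is represented by 1 gene. Added were 3 neighbouring genes per side where a row with 1 symbol exists and the 3 rows most like a member whose group means span 1 or more. Outside that rule, CD4, CD3D, CSF1R and the Hodgkin markers were named after their values were seen. GBP1, CD74 and FCGR1A were not analysed here. Same-numbered replicates deviated together with Pearson correlations between -0.210 and 0.233 in L-428 and between -0.074 and 0.283 in L-1236, so numbers were not taken as pairs. Figures were drawn with matplotlib 3.10.9 (Python 3.11.15).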

Additional observations from a re-analysis of the deposited data

Results flagged for a closer look

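For 17 genes of the 6 pathway lists the effect of EBF1 differed between the lines, beside 5.16% of all rows. The difference is the interaction term of the fit (L-428 minus L-1236). The 6 list genes with the largest differences are given here. RGS16 differed by 0.90 (limma, adjusted p = 1.13e-05), with an effect of 0.37 in L-428 and -0.53 in L-1236. LGALS3BP differed by 0.78 (limma, adjusted p = 5.66e-05), with 1.01 in L-428 and 0.22 in L-1236. The difference for IFIT2 was 0.84 (limma, adjusted p = 0.000363), with -0.10 in L-428 and -0.94 in L-1236, and that for IFIT3 was 0.59 (limma, adjusted p = 0.012), with -0.012 in L-428 and -0.60 in L-1236. NMI had effects of -0.36 in L-428 and -1.02 in L-1236, a difference of 0.67 (limma, adjusted p = 0.00181). BCL3 differed by 0.60 (limma, adjusted p = 0.00355), with -0.034 in L-428 and -0.63 in L-1236. In each of these genes all 3 L-1236 arrays with EBF1 lay apart from all 3 controls. That adds no support, since the genes were picked by their differences on the same arrays. The IFIT3 difference missed the threshold after median centring and in the fit over every row, with an adjusted p of up to 0.053, and the other 5 differences passed in all 21 alternatives run.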

How the results depend on the processing

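No difference of CXCL9, CXCL10, CXCL11 or CXCR3 whose arrays did not overlap changed direction in any alternative run. Quantile normalization gave 1.57 for CXCL9 in L-428 and -0.27 for CXCL10 between the controls. Leaving out single arrays gave 1.60 to 1.69 for CXCL9 and -0.51 to -0.33 for CXCR3 in L-428, and -0.63 to -0.53 for CXCL10 and -0.35 to -0.25 for CXCL11 in L-1236. The small differences with overlapping arrays of CXCL10 (-0.016 to 0.16) and CXCL11 (-0.062 to 0.053) in L-428 crossed 0, as did that of CXCL11 between the controls (-0.0019 to 0.11). Counts of called rows moved more. In L-428, 892 rows were called, against 1614 after quantile normalization, 498 after median centring, 2657 and 2592 with array weights (default and gene by gene), 20 at 2-fold, 1984 (703 higher, 1281 lower) without both arrays of narrow range and 463 to 1307 without single arrays. In L-1236, 1981 were called, against 3063, 8750 and 5176 with quantile normalization and both kinds of weights, 30 at 2-fold and 1294 to 2898 without single arrays. For the difference of effects, 1061 were called, against 1865 (quantile), 599 (centring), 4538 and 3194 (weights), 676 (every row), 32 (2-fold), 1897 (784 higher, 1113 lower, without both arrays) and 672 to 1457. Between the controls 9836 were called, and 1479 at 2-fold. Of the genes of the 6 pathway lists, 22 were called in L-428 (14 higher, 8 lower), 14 after centring (12 higher, 2 lower), 1 at 2-fold and 14 to 23 without single arrays. In L-1236 there were 36 (14 higher, 22 lower), against 22 (6 higher, 16 lower), 78 and 58 (weights), 1 at 2-fold and 21 to 52. For the difference there were 17 (17 higher, 0 lower), against 29 (quantile; 24 higher, 5 lower), 10 (centring), 54 and 41 (weights), 8 (every row), 0 (2-fold), 29 (without both arrays; 17 higher, 12 lower) and 11 to 24. Between the controls there were 94, and 27 at 2-fold. The cause was not tested. Default array weights did not converge, with a weight of 36.7 on replicate 3 of L-1236 tGFP/EBF1, and the gene-by-gene weights and the removal of both arrays were added after seeing the data. The samples share only replicate numbers: with the replicate number as a block, CXCL9 in L-428 stayed at 1.65, the called rows numbered 731 in L-428 and 1774 in L-1236, and the list genes called were 20 and 34. Of the named EBF1 calls, 27 of 54 held in every alternative. On 1 strand alone, 3.41% of promoter windows held the ISRE core and 3.17% the kappaB consensus. With 3 arrays a group and no signal over background in the table, a bound for dim rows could not be given.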

Other observations

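Of the 8 Hodgkin cell markers, 2 rose and 0 fell in L-428, where 2.62% of all rows rose and 1.72% fell. In L-1236, 2 rose and 1 fell, where 3.69% of all rows rose and 5.95% fell. CCL22, a chemokine that draws regulatory T cells and is used as a marker of Hodgkin cells, averaged 8.09 in L-428 tGFP/EBF1 and 7.07 in L-428 tGFP and rose by 1.03 (limma, adjusted p = 1.41e-08). It averaged 10.18 in L-1236 tGFP/EBF1 and 8.65 in L-1236 tGFP and rose by 1.53 (limma, adjusted p = 2.46e-11). The effect on CCL22 differed between the lines by -0.50 (L-428 minus L-1236; limma, adjusted p = 0.00324). In L-428 LMNA, which encodes the nuclear lamins A and C, rose by 0.31 (limma, adjusted p = 0.00719). TNFRSF8, which encodes the Hodgkin marker CD30, rose by 0.51 in L-1236 (limma, adjusted p = 6.54e-05) and differed by 0.041 in L-428 (limma, adjusted p = 0.927). FUT4, the enzyme that makes the Hodgkin marker CD15, fell by 0.22 in L-1236 (limma, adjusted p = 0.0349). For CCL22 and TNFRSF8 the difference of effects passed the adjusted p, and for the other 6 markers it did not. Alternatives were not run for these markers.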
